A study of Mus musculus with 8 samples.

Results

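Cytosolic ribosomal protein genes encode the protein part of the ribosome that translates nuclear-encoded mRNA. They were taken from the table of transcript counts by symbol: every symbol that begins with Rpl or Rps followed by a digit or a p, and Rpsa, without symbols containing -ps (pseudogenes) and without the Rps6k kinases. This gave 89 genes with 153 transcripts among 35963 gene symbols. Of the 89, 77 encode standard subunit proteins, with 31 in the small subunit, 43 in the body of the large subunit and 3 in the ribosomal stalk. The other 12 symbols are paralogues, retrotransposed copies or binding proteins such as Rps19bp1.

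The RNA came from colonic epithelial cells, released from the proximal colon of mice aged 4 weeks with a cell-releasing buffer. The mice of both groups carried Ccna2 alleles flanked by Cre target sites (Ccna2 fl/fl). The 4 libraries labelled Ccna2-KO also carried Cre driven by the villin promoter (vil-Cre), which is active in intestinal epithelium and not in the leukocytes or stroma of the gut wall. The 4 controls had the floxed alleles without Cre and are labelled wild type. Ccna2 encodes cyclin A2, a partner of cyclin-dependent kinases in S phase. The labels do not say that the libraries came from separate mice, so p-values measure the spread between libraries, which may be technical.

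A ribosome is built from a small subunit, which reads the mRNA, and a large subunit, which forms the peptide bond, and its proteins are made in nearly equal numbers. Most ribosomal protein mRNAs begin with a C followed by a run of pyrimidines, the terminal oligopyrimidine (TOP) motif, through which mTORC1 signalling controls their translation. In the intestine the dividing crypt cells make ribosomes at a high rate, and when assembly fails, free Rpl5 and Rpl11 bind the ubiquitin ligase Mdm2 and so stabilise p53.

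An annotated start is shown for 8 members because the TOP motif is the sequence these genes are known to share. The results below also turn on several of them. RefSeq starts on GRCm38.p6 were matched by symbol for 68 of the 89 genes. Each line gives 15 bases before and 15 bases after the annotated start, on the coding strand. For Rps27l, Rps2, Rpl38 and Rpl7a the start used lies inside the gene, downstream of the first base of its coordinates. Capitals mark a C followed by at least 4 bases that are each C or T, reaching to within 5 bases of the start. Rps27 is at chr3:90213634-90213663 (minus strand), Rps27l at chr9:66946071-66946100 (plus), Rps2 at chr17:24720048-24720077 (plus) and Rplp2 at chr7:141447636-141447665 (plus). Rpl38 is at chr11:114668565-114668594 (plus), Rpl7a at chr2:26910792-26910821 (plus), Rps6 at chr4:86857353-86857382 (minus) and Rpl22l1 at chr3:28805493-28805522 (plus).
Rps27: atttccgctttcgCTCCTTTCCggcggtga
Rps27l: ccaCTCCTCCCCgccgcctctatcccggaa
Rps2: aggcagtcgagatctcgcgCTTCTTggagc
Rplp2: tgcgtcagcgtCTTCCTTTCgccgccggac
Rpl38: agcggaagcctcgttCTTTCCCCgttctct
Rpl7a: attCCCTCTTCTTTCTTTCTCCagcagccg
Rps6: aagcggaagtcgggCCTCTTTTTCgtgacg
Rpl22l1: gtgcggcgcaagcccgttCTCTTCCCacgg

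Every window shown above carries a run of this kind, so the display does not show how common it is. Such a run was found at the start used for 35 of the 68 genes (51.5%), and for 30 of the 57 standard subunit genes with an entry (52.6%). Among all 27025 genes in the promoter table, 7570 (28.0%) had one. The run was searched on the coding strand only, and a match describes the letters in this window. The marked run is 9 bases long in both Rps27 and its paralogue Rps27l, but it ends before the start used in Rps27l and spans it in Rps27. Each of these windows also holds a shorter, unmarked run, after the start used in Rps27l and before it in Rps27. The contrast therefore concerns the marked runs only. The start used for Rps27l lies inside the gene, whose coordinates begin at chr9:66944624, so the 2 windows may not be at like positions.

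Control replicate 1 stood apart from every other library in these genes and is described before the comparison. The members held 4.76% of all gene counts in control replicate 1, against 2.33%, 2.22% and 2.76% in control replicates 2 to 4. In Ccna2-KO replicates 1 to 4 they held 2.51%, 2.95%, 2.80% and 1.98%. The share in control replicate 1 was 1.95 times the mean of the other 3 controls, and without that library the groups overlapped around 2.44% ± 0.28 (SD, n = 3) in controls and 2.56% ± 0.43 (SD, n = 4) in Ccna2-KO. With it, the control mean was 3.02% ± 1.18 (SD, n = 4). The widest 95% Wilson interval of these shares spanned 0.0159 percentage points, which covers counting error only.

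**Figure D1:**
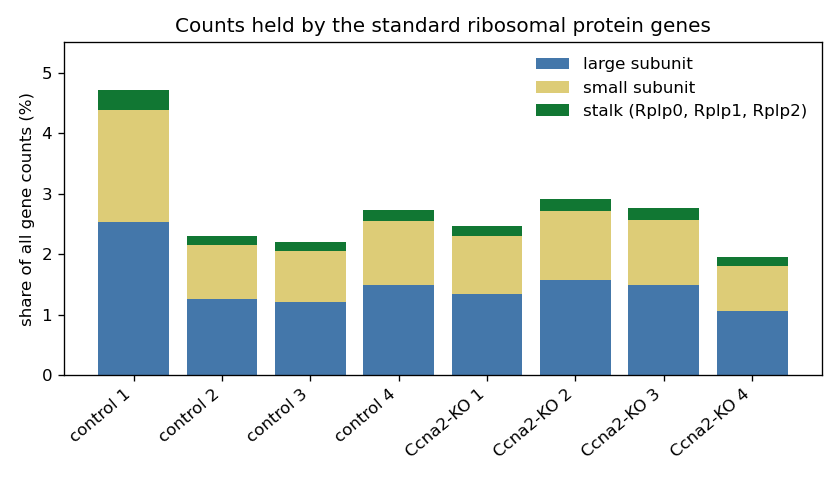
Share of all gene counts (%) held by the standard ribosomal protein genes in each of the 8 libraries, stacked by large subunit, small subunit and stalk. Control replicate 1 has the tallest bar, and the large and small subunits keep nearly the same ratio in all libraries.

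The members moved together from library to library. After each gene's log2 CPM (counts scaled to a fixed library total) was centred on its own mean over the 8 libraries, the median over the 84 genes that passed the filter on low counts was 0.78 in control replicate 1 and between -0.37 and 0.06 in the other 7. The SD among the genes within a library, leaving out Rpl29, was 0.08 to 0.18 on that scale. Counts of the large subunit were 1.35 to 1.43 times those of the small subunit in every library. Control replicate 1 was the highest of the 8 libraries for 82 of the 84 genes, against 26.9% of all genes tested. The exceptions were Rpl37rt, highest in control replicate 3, and Rps6, highest in Ccna2-KO replicate 3. Ccna2-KO replicate 4 was the lowest for 62 of the 84, against 14.0% of all genes.

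**Figure D2:**
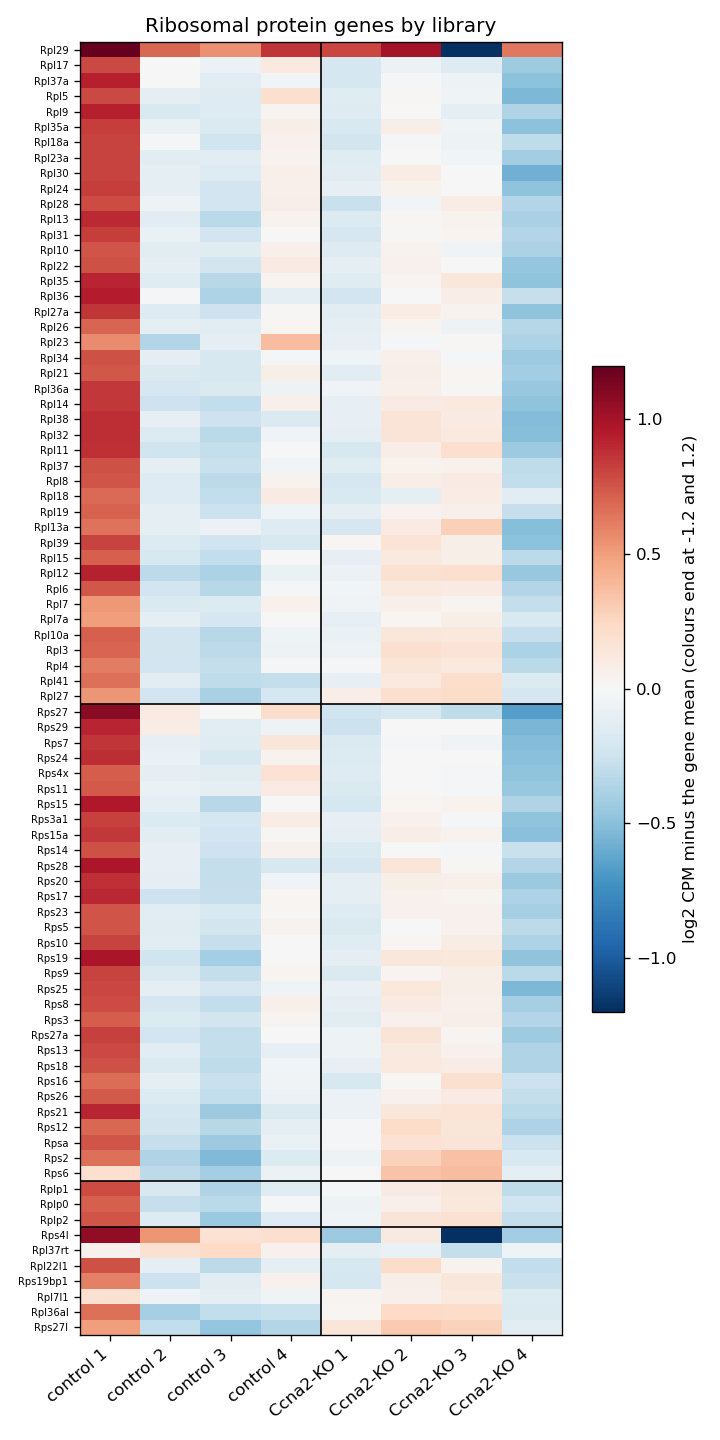
Log2 CPM minus the gene's mean over the 8 libraries for the 84 tested genes (rows, grouped as large subunit, small subunit, stalk and other symbols) in each library (columns, control left of the line). The column of control replicate 1 is high in nearly all rows, that of Ccna2-KO replicate 4 is low, and Rpl29 in Ccna2-KO replicate 3 is the darkest blue cell with Rps4l.

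Other features of control replicate 1 went with this, and their part in it was not tested. Rows without a gene symbol took 5.51% of its counts, the highest of the 8 libraries (3.19% to 5.51%). The 77 mitochondrial ribosomal protein genes were a median of 1.54 times the other controls there, and 70 of them were highest in that library. Another 77 abundant genes with short main transcripts (under 1000 bases) were a median of 1.33 times the other controls, and 1403 abundant genes with longer ones 0.862 times. The summed CPM of 10 cycling cell markers was 695 in control replicate 1, 313 to 340 in the other controls and 671 to 986 in Ccna2-KO, and 2 of the 10 were higher in Ccna2-KO. The 10 leukocyte markers summed to 23.1 CPM in control replicate 1, 41.3 to 80.4 in the other controls and 13.5 to 22.1 in Ccna2-KO, and 4 of the 8 tested were lower. Epithelial markers summed to 37907 to 46730 CPM, with 0 of 10 called by the edgeR test, and stromal markers to 6.85 to 14.0 in controls and 10.5 to 30.9 in Ccna2-KO, with 1 of 5 tested higher. Endothelial markers summed to 2.06 to 3.47 CPM in controls and 1.28 to 1.62 in Ccna2-KO, without overlap, and the 1 tested was lower. By the same edgeR test, 6.4% of all genes were higher in Ccna2-KO and 5.71% lower. No marker in these lists was at 0 in all libraries.

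The number in each library's label divides the libraries in a similar way, and the labels do not state its meaning. Numbers 595 to 598 belong to control replicates 2, 3 and 4 and Ccna2-KO replicate 4, and numbers 621 to 641 to control replicate 1 and Ccna2-KO replicates 1, 2 and 3. Within the low numbers, Ccna2-KO replicate 4 was below all 3 controls for 64 of the 84 genes, against 33.9% of all genes. Within the high numbers, control replicate 1 was above all 3 Ccna2-KO libraries for 83 of the 84, against 41.0% of all genes. Each of these comparisons has a single library on one side, so there is no replicate check within a number set.

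The targeted gene did not separate the groups in CPM. Ccna2 stood at 54.3, 25.9, 11.9 and 18.3 CPM in control replicates 1 to 4 and at 18.2, 26.6, 26.6 and 16.2 CPM in Ccna2-KO replicates 1 to 4 (log2 fold change -0.33 ± 0.41 SE, edgeR adjusted p = 0.673). The groups are therefore named by their labels throughout. Cyclin A2 acts in S phase, and the cycling cell markers summed to 313 to 340 CPM in control replicates 2 to 4. They summed to 695 CPM in control replicate 1 and 671 to 986 CPM in Ccna2-KO, and Ccna2 per cycling cell was not tested. The labels do not give the deleted part of Ccna2, so transcript of the deleted alleles may be counted. These CPM therefore do not measure how much Ccna2 was lost. These are bulk samples, so fewer cells of a type and less RNA per cell cannot be told apart.

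No ribosomal protein gene passed the test of genotype over all 8 libraries. By edgeR's quasi-likelihood test with Benjamini-Hochberg adjustment over 15893 genes, 0 of the 84 were higher in Ccna2-KO, against 6.4% of all genes, and 0 were lower, against 5.71%. At an unadjusted p under 0.05 there were 3, and the smallest adjusted p was 0.068. DESeq2 called 2 lower (6.82% of the genes for which it gave an adjusted p), Rps4l and Rps27, and 0 higher (7.28%), and limma voom called 0. The median log2 fold change of the 84 was -0.25, against -0.01 over all genes tested, with 78 negative and 6 positive values between -0.95 and 0.29. The CPM of the groups did not overlap for 0 genes higher in Ccna2-KO (9.41% of all genes) and for 3 lower (9.6%), which were Rps4l, Rps27 and Rpl37rt.

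The call depended on how control replicate 1 was treated. Without it, 4 genes were higher in Ccna2-KO (15.1% of all genes), 1 was lower (13.4%), and the median was 0.05. The 4 were Rps27l (log2 fold change 0.53, edgeR adjusted p = 0.00745), Rpl36al (0.41, adjusted p = 0.0209), Rpl27 (0.36, adjusted p = 0.0432) and Rps2 (0.46, adjusted p = 0.0495). The gene that fell was Rps27 (-0.44, adjusted p = 0.0220). With a term for the number set and all 8 libraries, 0 were higher (9.29% of all genes) and 54 were lower (8.9%), with a median of -0.52. The set and the genotype coincide in 6 of the 8 libraries, so that fit separates them only in part, and it rests on the 2 comparisons with a single library described above. Rps27 is the only one of the 84 that was lower and called in both of these fits.

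**Figure D3:**
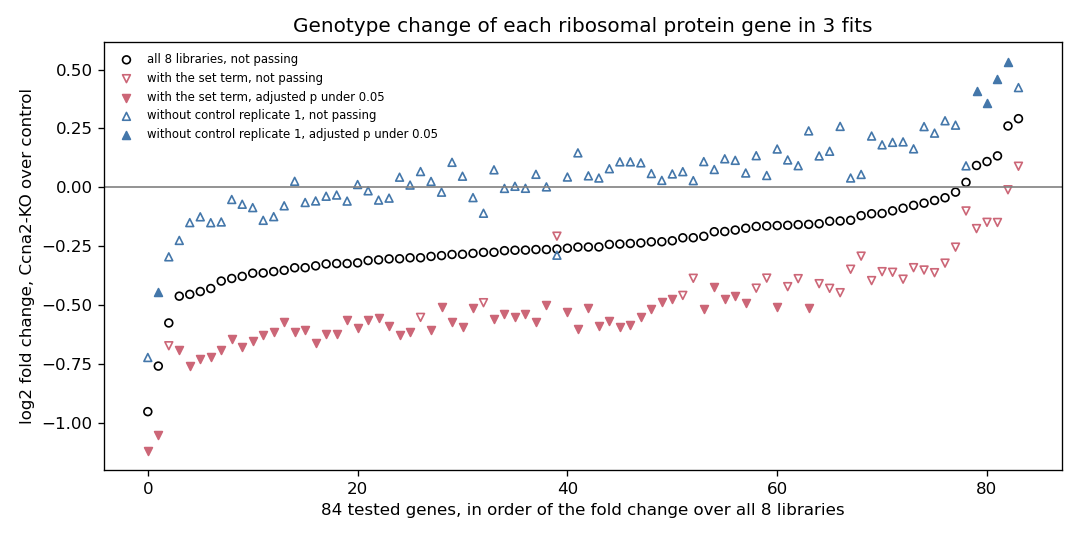
Log2 fold change (Ccna2-KO over control) of the 84 tested genes, in order of its value over all 8 libraries, for 3 fits: all libraries, all libraries with a term for the number set, and without control replicate 1. Filled symbols passed adjusted p under 0.05, and the same genes lie mostly below 0 with the set term and near 0 without control replicate 1.

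As shares of the ribosomal protein counts, some members separated the groups. Each gene was expressed as a share of the ribosomal protein counts of its own library, which removes the level common to the members. On this scale control replicate 1 lay with the other controls for Rps27, Rps27l, Rps2 and Rpl27. It still stood apart for others, such as Rpl7a (1.80%, other controls 2.18% to 2.25%) and Rpl12 (1.19%, other controls 0.963% to 1.01%). The groups did not overlap for 16 of the 84 genes higher in Ccna2-KO (14.9% of all genes on the same scale) and for 15 lower (2.1%). Dividing by the ribosomal protein counts puts the members' common level into all other genes, so these background shares are not like for like. In CPM they were 9.41% and 9.6%. These shares sum to a constant, so a gene can rise as others fall. All genes tested have a median log2 fold change of 0.13 on this scale, against -0.03 for the members. An edgeR fit scaled to the ribosomal protein total called 0 members higher (6.34% of all genes) and 0 lower (1.47%), with 4 at an unadjusted p under 0.05 and a smallest adjusted p of 0.132. The same limit holds for the background shares of this fit.

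Rps27 and its paralogue Rps27l separated the groups in opposite directions. Rps27, a small subunit protein with a zinc finger, made up 1.07%, 1.03%, 1.03% and 0.992% of the ribosomal protein counts in control replicates 1 to 4. In Ccna2-KO replicates 1 to 4 its share was 0.785%, 0.715%, 0.665% and 0.695%, so every Ccna2-KO library was below every control. Rps27l, a close paralogue of Rps27 known as a p53 target gene, made up 0.237%, 0.259%, 0.246% and 0.224% in the controls and 0.342%, 0.336%, 0.331% and 0.332% in Ccna2-KO. The mean share of Rps27 in Ccna2-KO was 0.695 times that in controls, and that of Rps27l 1.39 times.

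The ratio of the paralogues within a library does not depend on any scaling. There were 0.221, 0.253, 0.239 and 0.225 counts of Rps27l for each count of Rps27 in control replicates 1 to 4, and 0.435, 0.471, 0.498 and 0.478 in Ccna2-KO replicates 1 to 4. The Ccna2-KO ratio was 2.01 times the control ratio, and the groups did not overlap: 0.235 ± 0.014 (SD, n = 4) against 0.470 ± 0.026 (SD, n = 4). The pairs were compared after the data were seen. As the shares of Rps27 and Rps27l had separated in opposite directions, their ratio had to separate, so its p is no further evidence. An exact two-sided permutation test gave p = 0.0286, the smallest that 4 against 4 can give, and 0.0714 after Benjamini-Hochberg adjustment over the 5 paralogue pairs compared. With 2 separated pairs among 5, this adjusted p could not have been lower. Both low and high library numbers showed it: 0.478 in Ccna2-KO replicate 4 against 0.225 to 0.253 in the controls with low numbers, and 0.221 in control replicate 1 against 0.435 to 0.498 in the Ccna2-KO libraries with high numbers. Leaving out any 1 library kept the log2 difference between 0.98 and 1.04.

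**Figure D4:**
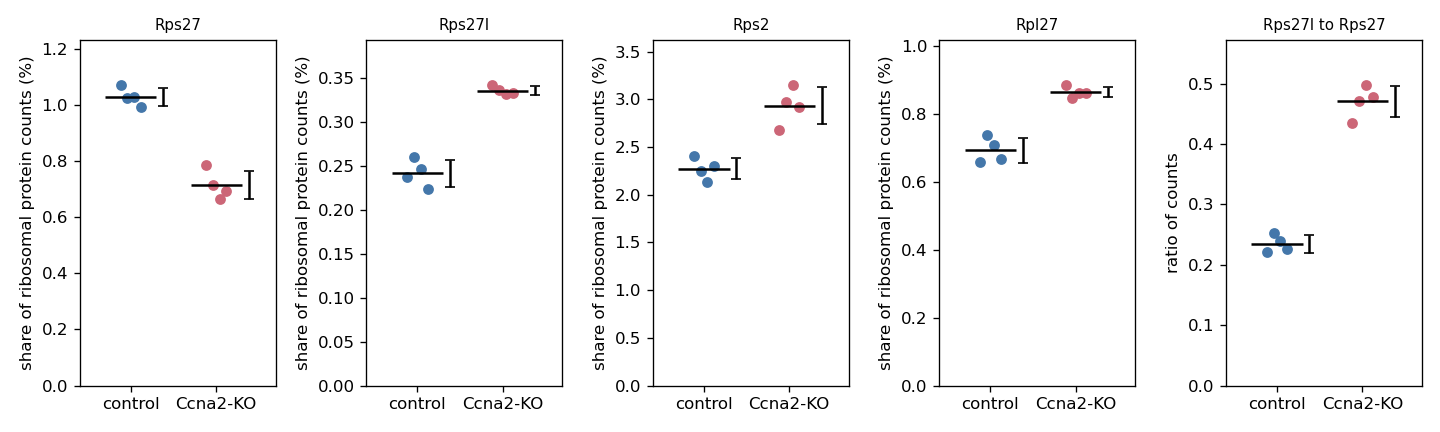
Share of ribosomal protein counts (%) for Rps27, Rps27l, Rps2 and Rpl27, and the ratio of Rps27l to Rps27 counts, by library (points), with the group mean (line) and SD (bar, 4 libraries a group). In each panel the 4 control points and the 4 Ccna2-KO points do not overlap.

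Of the other 4 pairs, the ratio of Rpl36al to Rpl36a, near-identical large subunit proteins, also had groups that did not overlap. It was 0.710, 0.704, 0.742 and 0.701 in controls and 0.843, 0.915, 0.929 and 0.983 in Ccna2-KO (1.28 times, exact permutation p = 0.0286, adjusted p = 0.0714). The ratio of Rpl22l1 to Rpl22 overlapped, at 0.538 ± 0.036 (SD, n = 4) in controls and 0.597 ± 0.049 (SD, n = 4) in Ccna2-KO, with an exact permutation p of 0.114 and an adjusted p of 0.143. The ratio of Rpl7l1 to Rpl7 overlapped as well (0.0686 ± 0.0092 against 0.0751 ± 0.0026, SD, n = 4 each, exact permutation p = 0.257, adjusted p = 0.257). Rps4l, a retrotransposed relative of the X-linked Rps4x, had 0.0135 ± 0.0023 counts for each Rps4x count in controls and 0.0091 ± 0.0032 in Ccna2-KO (SD, n = 4 each, exact permutation p = 0.0857, adjusted p = 0.143).

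The low-count Rps4l had a share of 0.0325% ± 0.0049 (SD, n = 4) in controls and 0.0195% ± 0.0067 (SD, n = 4) in Ccna2-KO, a ratio of 0.599. Rps2, a small subunit protein near the mRNA entry channel, held 2.27% ± 0.11 (SD, n = 4) of the ribosomal protein counts in controls and 2.93% ± 0.19 (SD, n = 4) in Ccna2-KO. Rpl27 held 0.694% ± 0.037 (SD, n = 4) and 0.864% ± 0.016 (SD, n = 4), and Rpsa, also known as the laminin receptor, 2.32% ± 0.11 (SD, n = 4) and 2.65% ± 0.01 (SD, n = 4). Shares of the 3 stalk proteins were 1.09 to 1.12 times the control share. On the lower side, Rps29 had 0.698% ± 0.061 (SD, n = 4) in controls and 0.593% ± 0.025 (SD, n = 4) in Ccna2-KO, and Rpl5 2.11% ± 0.11 (SD, n = 4) and 1.85% ± 0.08 (SD, n = 4).

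In CPM, the stalk proteins, which recruit translation factors to the ribosome, show the common pattern of the members. Rplp0, the stalk base (chr5:115559467-115563729), stood at 1746, 877, 849.7 and 1043 CPM in control replicates 1 to 4 and at 1017, 1108, 1161 and 897 CPM in Ccna2-KO replicates 1 to 4. Control replicate 1 was the highest and the other 7 libraries overlapped. Its genotype change was -0.11 ± 0.23 on the log2 scale (SE, edgeR adjusted p = 0.814). Rplp1 (-0.11 ± 0.25, adjusted p = 0.828) and Rplp2 (-0.07 ± 0.25, adjusted p = 0.902) gave near-equal values. None of the 3 was called with the set term or without control replicate 1.

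Among the small subunit proteins, Rps27 was the one with separated CPM. It stood at 491, 248, 232 and 267 CPM in control replicates 1 to 4 and at 196, 203, 187 and 146 CPM in Ccna2-KO replicates 1 to 4 (chr3:90212667-90213648). All 4 Ccna2-KO values lay below the lowest control, for a log2 change of -0.76 ± 0.24 (SE) that missed the threshold (edgeR adjusted p = 0.0719). With the set term it was -1.05 (adjusted p = 0.000819). Rps29 was -0.45 ± 0.24 (adjusted p = 0.273) and Rps4x, the standard subunit gene on the X chromosome, -0.36 ± 0.20 (adjusted p = 0.302).

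Other small subunit genes of the named list follow. Rps3, at the mRNA entry, was -0.23 ± 0.21 (SE, edgeR adjusted p = 0.554), Rps3a1 -0.33 ± 0.23 (adjusted p = 0.430) and Rps20 -0.28 ± 0.25 (adjusted p = 0.532). Rps19, the gene most often mutated in Diamond-Blackfan anaemia, was 2.27 times the other controls in control replicate 1, and its genotype change was -0.25 ± 0.29 (adjusted p = 0.647). Rps27a, made as a fusion with ubiquitin, was -0.21 ± 0.25 (adjusted p = 0.659) and Rpsa -0.04 ± 0.25 (adjusted p = 0.938). Rps2 had a positive value, 0.13 ± 0.26 (adjusted p = 0.800), with 1101, 543, 483 and 620.0 CPM in controls and 668, 844, 887 and 615 CPM in Ccna2-KO.

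In the large subunit, the genes linked to p53 are Rpl5, Rpl11 and Rpl23, whose proteins bind Mdm2, and Rpl26, which binds p53 mRNA. Rpl5 (chr5:107900508-107909005) stood at 925, 492, 478 and 611 CPM in controls and at 482, 537, 518 and 366 CPM in Ccna2-KO, so the groups overlapped. On the log2 scale Rpl5 differed by -0.40 ± 0.22 (SE, edgeR adjusted p = 0.301). Rpl11 was -0.24 ± 0.26 (adjusted p = 0.633), Rpl23 -0.28 ± 0.20 (adjusted p = 0.423) and Rpl26 -0.28 ± 0.19 (adjusted p = 0.410). With the set term Rpl5, Rpl11 and Rpl26 were lower (adjusted p = 0.00585, 0.0302 and 0.0153) and Rpl23 missed the threshold (0.0597), and without control replicate 1 none of the 4 was called.

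Other large subunit genes included Rpl3, which extends to the peptidyl transferase centre (-0.09 ± 0.23, SE, edgeR adjusted p = 0.862), and Rpl10, added late in subunit assembly (-0.31 ± 0.21, adjusted p = 0.397). Rpl38, needed in the mouse embryo for normal patterning of the axial skeleton, was -0.24 ± 0.27 (adjusted p = 0.627), Rpl39, at the exit tunnel, -0.16 ± 0.25 (adjusted p = 0.746), and Rpl41, a very short peptide, -0.02 ± 0.22 (adjusted p = 0.968). Rpl7 and Rpl7a, among the genes with the smallest excess in control replicate 1 (1.53 and 1.51 times the other controls), were -0.14 ± 0.17 (adjusted p = 0.667) and -0.12 ± 0.16 (adjusted p = 0.700). Rpl17 had the lowest value of the standard large subunit genes after Rpl29, -0.46 ± 0.19 (adjusted p = 0.166). Rpl27 was 0.11 ± 0.20 (adjusted p = 0.792), Rpl36a -0.26 ± 0.24 (adjusted p = 0.547) and Rpl22 -0.30 ± 0.22 (adjusted p = 0.425).

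Of the 12 other symbols, 7 passed the filter. Rps27l (chr9:66944624-66949522) stood at 109, 62.6, 55.5 and 60.2 CPM in controls and at 85.0, 95.4, 93.2 and 69.8 CPM in Ccna2-KO. All 4 Ccna2-KO libraries were above control replicates 2 to 4 and below control replicate 1, for a log2 change of 0.26 ± 0.21 (SE) over all libraries (edgeR adjusted p = 0.494) and of -0.01 with the set term (adjusted p = 0.963). Rps4l was low, at 13.7, 9.46, 7.41 and 7.54 CPM in controls and 4.85, 7.08, 2.84 and 4.90 CPM in Ccna2-KO. It had the lowest fold change of the 84, -0.95 ± 0.30 (adjusted p = 0.068).

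The remaining tested symbols were Rpl36al (0.09 ± 0.23, SE, edgeR adjusted p = 0.852), Rpl22l1 (-0.17 ± 0.23, adjusted p = 0.714), Rpl7l1 (0.02 ± 0.10, adjusted p = 0.927), Rpl37rt (-0.26 ± 0.14, adjusted p = 0.283) and Rps19bp1 (-0.16 ± 0.20, adjusted p = 0.672). Rpl7l1 acts in ribosome assembly, and Rps19bp1 binds Rps19. Rpl10l, which replaces Rpl10 in male germ cells, and Rps27rt had 0 counts in all 8 libraries. Rpl39l, the testis-enriched relative of Rpl39, had 0 to 2 counts a library, Rpl3l, the muscle form of Rpl3, 1 to 9 and Rpl32l 2 to 8, and none of the 5 was tested.

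Near-identical copies were examined for 2 standard genes, Rpl29 and Rps6, and made their values uncertain. Copies of the other members were not examined. Rpl29, a large subunit protein, had 7512, 3491, 4110 and 5191 counts in controls and 4468, 5777, 40 and 3429 in Ccna2-KO, so Ccna2-KO replicate 3 was almost empty. The pseudogene Gm8210 (chr1:43189052-43189773), 99.5% identical to an Rpl29 transcript over 422 bases with 2 mismatches, had 6021, 2711, 2981 and 3889 counts in controls and 3451, 4335, 9065 and 2708 in Ccna2-KO. Of the 2 together, 55.5% to 58.0% were counted under Rpl29 in the other 7 libraries and 0.439% in Ccna2-KO replicate 3 (95% Wilson interval 0.323% to 0.598%). The sum in that library, 9105 counts, lay within the range of the others (6137 to 13533). The log2 fold change of Rpl29 was -0.58 ± 0.90 (SE, edgeR adjusted p = 0.746), and that of the sum -0.15 ± 0.23 (adjusted p = 0.742).

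Rps6, the small subunit protein phosphorylated downstream of mTORC1, had 627, 381, 465 and 595 counts in controls and 563, 801, 783 and 445 in Ccna2-KO. The transcribed pseudogene Rps6-ps4 (chr2:75190995-75191854), listed as LOC105244208 and 100% identical over 750 aligned bases, had 9408 to 23063 counts. Rps6 itself received 2.65% to 4.52% of the 2 together. Counted alone, Rps6 had the value 0.29 ± 0.17 on the log2 scale (SE, edgeR adjusted p = 0.323), the highest of the 84, and that of the sum -0.11 ± 0.24 (adjusted p = 0.823), so its sign depended on the copy.

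**Figure D5:**
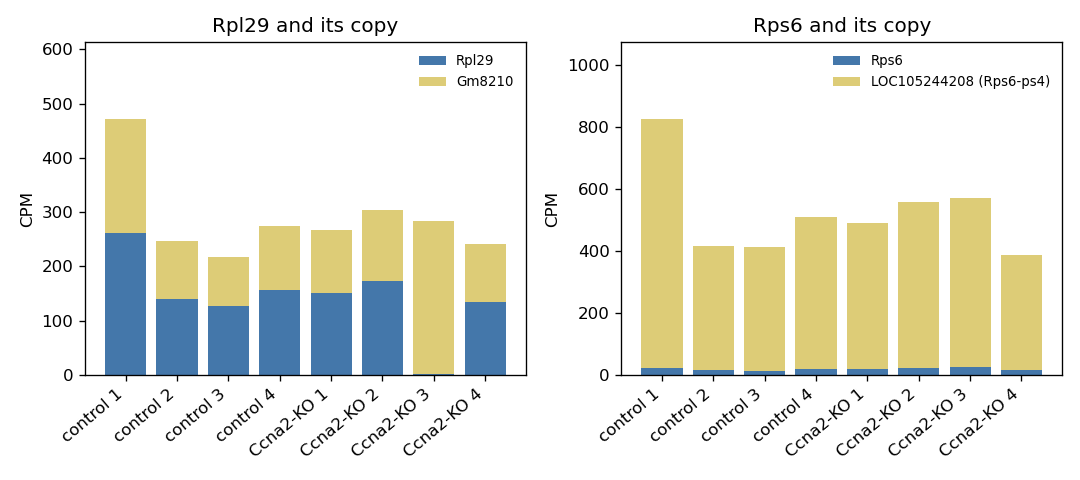
CPM in each library of Rpl29 with its copy Gm8210 (left) and of Rps6 with its copy LOC105244208 (right), stacked. In Ccna2-KO replicate 3 nearly all of the left bar is Gm8210, and in all libraries nearly all of the right bar is the Rps6 copy.

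Transcript usage was compared for the 14 members with at least 2 transcripts above 5% of the gene's counts. The groups did not overlap for 2 of them. The same share over all genes with several transcripts was not computed, so this count has nothing to be set against. The main transcript of Rpl35a took 92.3% ± 0.60 (SD, n = 4) of its counts in controls and 87.2% ± 1.16 (SD, n = 4) in Ccna2-KO, and that of Rpl15 71.7% ± 1.86 and 68.9% ± 1.49 (SD, n = 4 each). Exact permutation tests gave p = 0.0286 for each and 0.2 after Benjamini-Hochberg adjustment over the 14. With 4 against 4, 0.0286 is the smallest possible p, so 2 separated members among 14 could not have passed. Rps24, which has many transcripts, overlapped (70.9% against 73.6%, exact permutation p = 0.0857).

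Genes that build or supply ribosomes were counted from lists, by the same edgeR test, which called 6.4% of all genes higher and 5.71% lower. Of 109 ribosome biogenesis factors 1 was higher (Rrp1b, 8.01 to 13.0 CPM in the group means, log2 fold change 0.70, adjusted p = 0.0297, or 0.0583 with the set term) and 0 were lower, with a median of 0.13. Of 21 genes of RNA polymerase I and its factors, which transcribe ribosomal RNA, 0 were higher and 1 was lower: Znrd1 stood at 20.4, 21.0, 18.1 and 17.4 CPM in controls and 12.2, 11.2, 13.0 and 12.4 CPM in Ccna2-KO, without overlap (-0.65, adjusted p = 0.00685). Of 48 translation factors 2 were higher, Eif4g3 (0.59, adjusted p = 0.00749) and Eif2s2 (0.50, adjusted p = 0.0171), and 0 lower. Of 20 chaperones and importers of ribosomal proteins 2 were higher, Kpnb1 (0.47, adjusted p = 0.0157) and Ipo9 (0.49, adjusted p = 0.0386, or 0.0613 with the set term), and 0 lower.

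Of 36 genes that set ribosome supply through mTORC1 or Myc, 0 were higher (6.4% of all genes) and 2 were lower (5.71%). These were Maf1, a repressor of RNA polymerase III (-0.46, edgeR adjusted p = 0.0189), and Sesn1, an inhibitor of mTORC1 and p53 target (-0.48, adjusted p = 0.0287). Of 18 tested host genes of small nucleolar RNAs, many of which are TOP mRNAs too, 0 were higher and 1 was lower, Snhg3 (-0.65, adjusted p = 0.0344). Of 77 mitochondrial ribosomal protein genes, 0 were higher and 1 was lower, Mrps31 (-0.54, adjusted p = 0.00719). Fau and Rack1, ribosomal proteins with other names, had log2 fold changes of -0.29 and -0.29 (adjusted p = 0.246 and 0.432) and were 1.44 and 1.74 times the other controls in control replicate 1.

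Of 16 tested genes in a list made for Mdm2 and p53 in nucleolar stress, 5 were higher in Ccna2-KO (6.4% of all genes) and 0 were lower (5.71%), with a median log2 fold change of 0.31. The list does not separate nucleolar stress from other triggers of p53, and what raised these genes was not tested. Sesn1, a p53 target counted above with the mTORC1 and Myc genes, was lower. Ccng1, a p53 target gene, stood at 97.4, 83.0, 80.3 and 83.1 CPM in controls and at 170.2, 187, 162 and 139 CPM in Ccna2-KO (0.94 ± 0.12 SE, edgeR adjusted p = 0.00175). Eda2r and Phlda3, also p53 targets, were higher by 3.56 and 2.99 on the log2 scale (adjusted p = 0.000676 and 0.00413). Both were low in controls: Eda2r stood at 0.359 to 1.25 CPM there and 5.53 to 10.3 CPM in Ccna2-KO. Phlda3 stood at 0.399 to 2.02 CPM in controls and 5.18 to 11.0 CPM in Ccna2-KO. Control replicate 1 was the highest library for 0 of the 16, against 26.9% of all genes tested.

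The counts of these lists also depended on how control replicate 1 was treated. Without it, when 15.1% of all genes were higher and 13.4% lower, there were 31 higher and 1 lower among the biogenesis factors, 15 and 1 among the translation factors and 25 and 1 among the mitochondrial ribosomal proteins. The chaperones and importers then gave 6 higher and 1 lower, RNA polymerase I 2 and 3, the mTORC1 and Myc genes 6 and 6, the small nucleolar RNA hosts 0 and 1, and the Mdm2 and p53 genes 7 and 2. With the set term, when 9.29% of all genes were higher and 8.9% lower, the biogenesis factors gave 2 higher and 3 lower, the translation factors 2 and 9 and the mitochondrial ribosomal proteins 0 and 7. The chaperones and importers gave 2 higher and 3 lower, RNA polymerase I 0 and 1, the mTORC1 and Myc genes 1 and 3, the small nucleolar RNA hosts 0 and 3, and the Mdm2 and p53 genes 7 and 0.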

How the data were processed

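RNA-seq of colonic epithelial cells was analysed in 8 libraries, 4 per group by label. The authors deposited estimated counts per RefSeq transcript, made with kallisto on GRCm38 (mm10) per the submitters' processing notes, and its version and the RefSeq release are not given in the sources read. Kallisto shares reads among similar transcripts, so near-identical genes are uncertain. Of 107193 transcripts, 687 had no symbol (3.19% to 5.51% of counts) and were left out of library sizes and tests. Counts were summed per symbol and rounded, giving gene totals of 25960180 to 33028486 per library, and no 2 libraries of the same group agreed within sampling noise.

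Genotype was tested with edgeR 4.0.16 in R 4.3.3 (default low-count filter, TMM, robust quasi-likelihood F test, no covariate), with Benjamini-Hochberg adjustment over 15893 genes and a threshold of 0.05. Of the 89 members 84 passed the filter. CPM was computed with TMM factors, and a prior count of 2 was used on the log2 scale. In simulated counts for 15658 genes of this comparison, 45% of 100 genes changed by 1 and 89% of 100 genes changed by 2 (log2) were recovered, and 2.19% of calls were false. Single values were compared by exact two-sided permutation (scipy 1.17.1). Alternatives used other scalings, filters, DESeq2 1.42.0, limma 3.58.1 voom, NM_ transcripts only, a replicate block, a term for the label-number set and leaving out each library. Scaling to the ribosomal protein total, adding near-identical copies, paralogue ratios and transcript shares were added after seeing the data.

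The members and lists were chosen with earlier results of these data known. Named members were a written list (stalk, Mdm2-linked, paralogues and other well-studied proteins), the 5 highest and 5 lowest fold changes, and in other lists the 3 smallest adjusted p that passed. Rpl15, Rpl35a and Rps24 were named after their values were seen. Starts and coordinates are from RefSeq on GRCm38.p6, and copies were aligned with GENCODE transcripts of the same build. Transcript lengths come from GENCODE matches and set only the short and long classes. A gene that the rule takes is not reported here.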

Additional observations from a re-analysis of the deposited data

Results flagged for a closer look

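Each of 78 groups of 4 libraries was examined for 1 library whose gap to its nearest neighbour took up more of the group's range than Dixon's 95% critical value. Chance flags about 1 in 20 groups, and the members are not independent of each other. There were 14 such values, and 13 of them were control replicate 1 lying above the other 3 controls. They were Rplp1 (939 CPM, others 424 to 493), Rpl41 (749 CPM), Rpl26 (530.1 CPM), Rps27 (491 CPM), Rps20 (479 CPM), Rps29 (327 CPM) and Rpl27 (302 CPM). The rest were Rpl39 (284 CPM), Rpl36a (247 CPM), Rpl38 (177 CPM), Rpl36al (175 CPM), Rpl22l1 (126 CPM) and Rps27l (109 CPM, others 55.5 to 62.6). The last was the pseudogene Gm8210 in Ccna2-KO replicate 3, at 283 CPM against 106 to 130.0 in the other Ccna2-KO libraries.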

How the results depend on the processing

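Under RLE, upper quartile and plain library size scaling, TMM without the members, both filters, voom, NM_ transcripts only, rows without a symbol kept, added copies, the 77 standard subunits alone and ribosomal protein total scaling, 0 members were higher and 0 lower. DESeq2 gave 2 lower and the set term 54 lower, and the cause was not tested. Leaving out 1 library gave 0 to 4 higher, 0 to 1 lower and a median log2 fold change of -0.37 to 0.05, and only the omission of control replicate 1 gave calls (4 higher, 1 lower) or a positive median. Over 36 named members and 791 alternative values, 715 kept their direction and side of the threshold, 25 became calls (18 with the set term) and 51 changed sign with neither value called, 18 of them without control replicate 1. With NM_ transcripts only the members held a larger share of counts, 3.57% ± 1.35 in controls and 3.02% ± 0.49 in Ccna2-KO (SD, n = 4 each).

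The replicate block called 0 higher and 0 lower, with a median of -0.19. Same-numbered libraries did not deviate together (correlations of -0.07, -0.35, -0.26 and 0.15), and 1 of 8 libraries correlated best with its own number, so the numbers were not taken to pair libraries. The simulation recovered 45% of genes with a log2 change of 1, and smaller changes of a member could go uncalled. It drew each gene independently, without a shift shared by the members in a single library, so its recovery rate does not describe the members.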
